A study of Mus musculus with 4 samples.

Results

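The cells described here carry 1 heritable DNA tag, named Tag2 in the Diff_MK library and Tag6 in the MK library, and formed the clone whose share of the assigned cells was 6.38 times as large in Diff_MK as in MK. RNA cells with at least 1000 detected genes and at most 15% mitochondrial counts were joined to the tag matrix on the first 16 bases of the cell barcode. A cell was assigned to its leading tag where that tag had at least 3 counts and at least 2 times the counts of the next, leaving out counts that mapped to no tag. This gave 498 clone cells in Diff_MK and 75 in MK, 573 of the 14087 cells kept, and each was set against the other assigned cells of its own library, 4249 in Diff_MK and 4485 in MK.

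The series measured single-cell transcriptomes and lineage tags in MK, a line of mouse keratinocytes, the cells that build the epidermis. The 4 libraries form 4 groups of 1 library each, an RNA and a tag library labelled Diff_MK and an RNA and a tag library labelled MK. All 4 labels name Dox as the treatment (commonly doxycycline, an inducer of regulated transgenes), medium with 15% serum was used, and GFP-positive cells were sorted before capture. The labels give no age, passage or replicate culture and do not say how the Diff_MK cells were handled, so a difference between the libraries cannot be told apart from a difference between 2 cultures or 2 captures.

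A lineage tag is a short stretch of DNA that is changed once in a cell and then copied to its descendants, so cells that carry the same tag can be counted as 1 clone. Keratinocytes at the base of the epidermis divide and make keratins 5 and 14, and on leaving the base they make envelope proteins such as loricrin and the small proline-rich proteins. Keratins 8 and 18 form the filaments of simple epithelia, and keratin 17 and the protease inhibitor Slpi are best known from injured, inflamed or appendage epithelium.

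The tag that defines the clone is printed below with its neighbours 1 base away, because the same molecule has to be recognised in both libraries and kept apart from those neighbours. Of the tags, 123 of 154 in Diff_MK and 804 of 1055 in MK opened with the same 39 bases. Capitals mark the 6 bases that follow, of which those at positions 40 and 41 differ between the clones shown. The clone's tag is written as 49 bases in Diff_MK and as 56 bases in MK and is identical over the 49 bases both hold.
Diff_MK Tag2, the clone: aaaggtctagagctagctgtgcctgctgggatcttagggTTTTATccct
MK Tag6, the clone: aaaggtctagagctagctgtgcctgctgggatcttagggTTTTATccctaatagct
Diff_MK Tag5: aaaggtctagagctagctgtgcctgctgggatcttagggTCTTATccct
Diff_MK Tag20: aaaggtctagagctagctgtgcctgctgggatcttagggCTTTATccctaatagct
Diff_MK Tag41: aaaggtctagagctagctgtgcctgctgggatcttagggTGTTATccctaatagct
MK Tag7: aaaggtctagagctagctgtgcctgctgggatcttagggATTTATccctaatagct
Positions are counted from 1 at the 5′ end of the tag, with the base of the clone's tag written first. Tag5 differed by T41C and led 346 Diff_MK cells, Tag20 by T40C and led 85, and Tag41 by T41G and led 31. In MK, the T41C tag led 137 cells, Tag7 with T40A led 67, and the tags with T40C and T40G led 64 and 54. The clone is therefore 1 of several large clones whose tags differ at position 40 or 41. The neighbours were not absent from the clone's own cells. The T41C tag made up 7.42% of the other tag counts in clone cells, against 6.43% in Diff_MK cells of neither clone, and 3.84% against 3.44% in MK. Every neighbour compared had a slightly larger share in clone cells than in cells of neither clone. Each cell's leading tag was left out of these totals, so the clone's tag counted only in the totals of cells of neither clone. That lowers the neighbours' shares in those cells, so the excess does not show that neighbours were more abundant in clone cells. Whether cells with the same tag descend from a single cell was not tested.

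The clone's tag was the commonest tag in its cells by construction, and the margins show how clean the assignment was. In Diff_MK its counts were 216 in the median clone cell, against 23 in the median other assigned cell, and it made up 37.5% of the tag counts of the median clone cell (range 12.1 to 50.2%) against 5.56%. In MK the median was 266 counts in clone cells against 6 in other cells, a share of 38.7% (range 7.25 to 51.4%) against 1.26%. The tag was found at 1 count or more in 98.2% of the other assigned Diff_MK cells and 92.7% of those in MK, so its presence alone does not mark the clone. The leading tag exceeded the next by a median of 5.50 times in clone cells and 5.21 times in other cells of Diff_MK, and by 13 and 13.1 times in MK. The rule turned away 124 of the 622 Diff_MK cells and 71 of the 146 MK cells that the tag led, 95 and 44 of them for a lead under 2 times the next tag. Cells just inside the rule had a lead of 2 in both libraries, and cells just outside had 1.74 in Diff_MK and 1.98 in MK.

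The share of the clone is what singled it out and is given as a description. It held 10.5% of the 4747 assigned Diff_MK cells (95% exact Clopper-Pearson interval 9.63 to 11.4%), the second largest of 128 clones, against 1.64% of the 4560 assigned MK cells (1.30 to 2.06%), the sixth largest of 899. Counting every kept cell that the tag led, with no demand on its margin, the shares were 9.64% of the Diff_MK cells with tags and 2.28% of the MK cells with tags. These intervals cover the counting of cells only and not the spread between cultures. Of 91 tag pairs matched between the libraries over the shorter length, 76 were matched 1 to 1 and led assigned cells in each. Of these 76 clones, 39 had the larger share in Diff_MK.

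Among the 18 shared clones with 20 or more cells in each library, the clone's ratio of shares was the highest, the next was 3.97, the median 1.17 and the lowest 0.416. The largest Diff_MK clone, Tag3, held 11.4% of the cells there and 6.14% in MK, where it was also the largest. Over all 76 shared clones, 14 had a higher ratio than 6.38, each from 9 or fewer MK cells. One of these had 169 cells in Diff_MK and 1 cell in MK. The clone therefore stands out for being large in Diff_MK and already well counted in MK, not for the highest ratio of all. The plot of shares in both libraries shows this position.

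**Figure D1:**
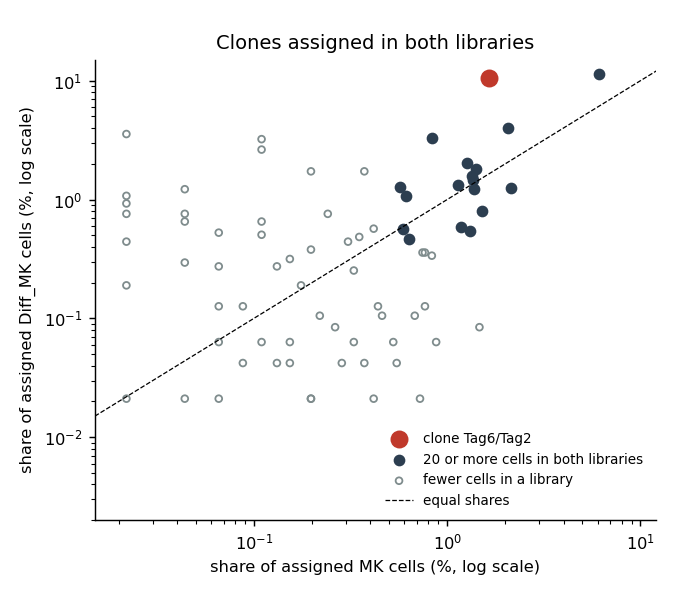
Share of assigned cells in Diff_MK (vertical axis, %) against the share in MK (horizontal axis, %) for the 76 clones assigned in both libraries, both axes on a log scale, with the dashed line at equal shares. The clone lies at 10.5% and 1.64%, far above the line, beside the largest clone at 11.4% and 6.14%.

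The RNA libraries held 7569 barcodes and 105961628 UMIs in Diff_MK and 7780 barcodes and 116732898 UMIs in MK, of which 6912 and 7175 cells were kept. Clone cells were as deeply sequenced as the others, with a median of 15302 UMIs against 14990 in other Diff_MK cells and 14884 against 15675 in other MK cells. Mitochondrial shares had medians of 5.95% against 6.04% in Diff_MK and 5.35% in both groups of MK. A second tag at 10% or more of the tag counts was found in 5.82% (3.93 to 8.26%) of clone cells against 7.01% of other cells in Diff_MK. In MK the rates were 2.67% against 1.18%. All these cells had already passed the rule on the leading tag, so the rates do not measure droplets with 2 cells. Of the kept barcodes, 9 were shared by the RNA libraries, and 0 barcodes were clone cells in both. Markers of melanocytes, fibroblasts, immune, endothelial, erythroid and Merkel cells were low in the clone. Of the listed markers, 5 of 7, 7 of 8, 9 of 11, 3 of 5, 4 of 5 and 3 of 6, in that order of cell types, had 0 UMIs in the Diff_MK clone. Their summed levels in Diff_MK ran from 0.124 to 12.6 CPM (counts per 1e6 counts) over the 6 lists in clone cells and from 0.391 to 12.4 CPM in other cells, in MK from 0 to 17.9 CPM and from 0.591 to 22.3 CPM, and no member reached 20 CPM.

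Gene levels were compared as CPM of the summed UMIs, 8046078 in the clone and 66523577 in the other assigned cells of Diff_MK, and 1118441 and 71040864 in MK. A gene was measured at 20 CPM or more in either group and called at a ratio of clone to other cells of at least 1.5 or at most the inverse of that. The brackets that follow a ratio are 95% exact binomial intervals of UMI counting, which take no account of the spread between cells or cultures. With 1 library per group there is no p-value, and the other clones of 20 or more cells, 49 in Diff_MK and 45 in MK, show how far clones spread. Very few genes were called in the clone. In Diff_MK 25 of 5393 measured genes (0.464%) were called, 5 higher (0.0927%) and 20 lower (0.371%), and the median log2 ratio over all measured genes was -0.04. In MK, 161 of 5702 (2.82%) were called, 56 higher (0.982%) and 105 lower (1.84%), with a median of -0.01. Called or not, 3405 measured genes of Diff_MK and 3004 of MK had a ratio under 1, and 1988 and 2698 a ratio above 1. Counts of list members on either side of 1 are to be read beside these.

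Clones of like size give the scale for these counts. In Diff_MK, the 539-cell Tag3 clone had 76 calls by the same rule and the 346-cell Tag5 clone had 33, so the 25 of the clone were fewer than in either. In MK the clone has 75 cells, and the 5 clones of 62 to 69 cells had 151 to 218 calls, a range that holds the clone's 161. Of the 161 MK calls, 150 were of genes under 50 CPM in both groups, and the counting interval left out 1 for 49 of the 56 higher and 77 of the 105 lower ones. MK calls for single genes are therefore near the level that other clones of that size show, while the Diff_MK calls rest on deeper sums. Of the 25 Diff_MK calls, 17 were of genes under 50 CPM in both groups. The clone was above or below every other clone for 0 of the 25, and for 19 of the 161 MK calls.

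Keratin 8 differed most of the genes measured in Diff_MK. Krt8 (chromosome 15, 101996698 to 102004482, minus strand, GRCm38), a type II keratin of simple epithelia, was at 13.2 CPM in clone cells and 76.4 CPM in other cells of Diff_MK, a ratio of 0.172 (0.141 to 0.209). In MK it was at 64.4 CPM in clone cells and 79.4 CPM in other cells, 0.811 (0.633 to 1.02), and was not called. A Krt8 UMI was found in 43 of 498 clone cells and 844 of 4249 other cells of Diff_MK. With every cell thinned to 7500 UMIs, the share was 4.80% (3.07 to 7.12%) of 479 clone cells against 14.7% of 3982 other cells, and unthinned it was 8.64% against 19.9%. Fewer clone cells thus held the transcript at equal depth.

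Other simple keratins did not all follow. Krt18, the type I partner of keratin 8 in simple epithelia, lay under 20 CPM and was read after its values were seen, with 1 UMI in the clone (0.124 CPM) against 8.39 CPM in other Diff_MK cells. In the other Diff_MK clones of 20 or more cells, the median of Krt18 was 0 CPM and the highest level 241 CPM. Of these 49 clones, 33 lay below the clone and 16 above, so its Krt18 was not low beside a typical clone. In MK, Krt18 was at 3.58 CPM in clone cells and 3.59 CPM in other cells. Krt7, another simple keratin, was at 22.99 CPM against 35.6 CPM in Diff_MK (0.647, 0.554 to 0.751) and at 11.6 CPM against 11.4 CPM in MK. Krt19, a keratin of stem cell compartments and simple epithelia, was at 1209 CPM in clone cells and 1187 CPM in other cells of Diff_MK (1.02), and at 265 CPM against 260 CPM in MK. The most abundant simple keratin was thus level with the other cells in both libraries.

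Low Krt8 was not particular to the clone. Of 49 other Diff_MK clones of 20 or more cells, 33 had more Krt8 and 16 less. Their median was 34.5 CPM and their highest 622 CPM. Among the 10 of 100 or more cells, levels ran from 2.44 to 159 CPM, and 3 were below the clone. The highest of those 10 was Tag5, the clone 1 base away. The sum over all other cells is raised by such high clones, and the ratio to it is larger than the distance to a typical clone.

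**Figure D2:**
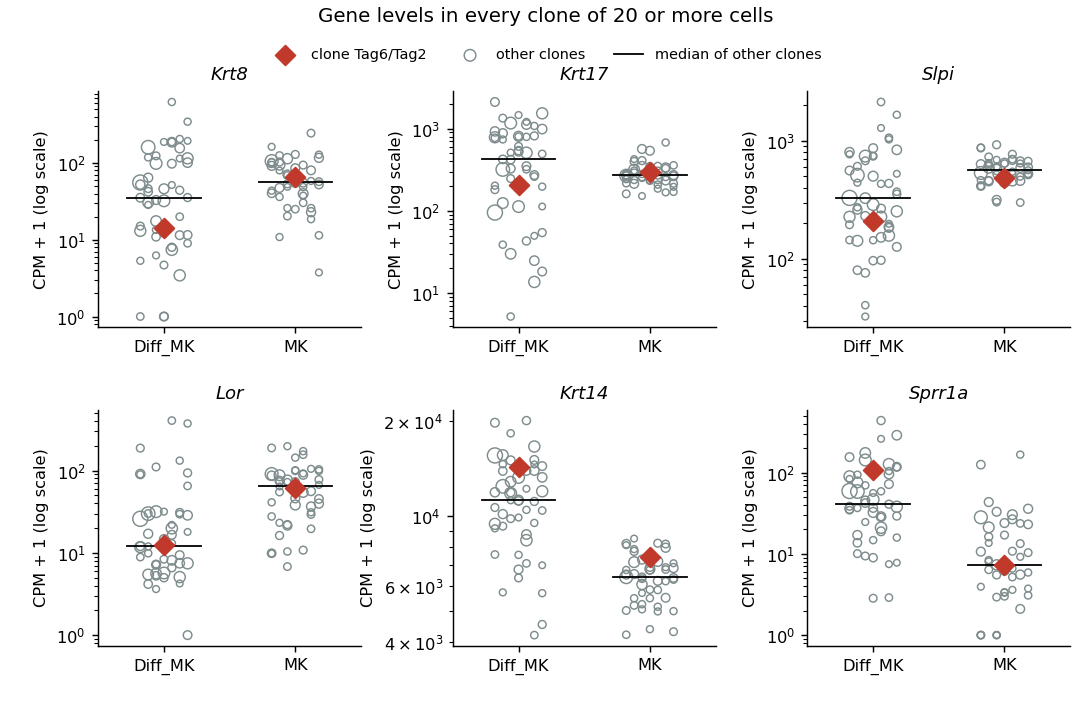
CPM plus 1 (log scale) of 6 genes in every clone of 20 or more cells, Diff_MK left and MK right in each panel, with symbols sized by cell number, the clone as a red diamond and the median of the other clones as a line. For Krt8 the clone is at 13.2 CPM against a median of 34.5 CPM in Diff_MK, and at 64.4 CPM against 56.1 CPM in MK, and it lies inside the spread of the other clones in every panel.

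Krt17 and Slpi, genes of the stressed epithelium, were the most abundant of those called lower. Krt17 (chromosome 11, 100256217 to 100261029, minus strand) was at 207 CPM in clone cells and 497 CPM in other cells of Diff_MK, 0.416 (0.396 to 0.437), and at 292 CPM against 309 CPM in MK, 0.947 (0.847 to 1.06). Slpi, a secreted inhibitor of neutrophil proteases, was at 208 CPM against 404 CPM in Diff_MK, 0.513 (0.488 to 0.539), and at 484 CPM against 611 CPM in MK, 0.792 (0.726 to 0.862). Thinned shares of cells with a UMI were 34.5% against 52.8% for Krt17 and 40.5% against 52.3% for Slpi in Diff_MK, and unthinned they were 43.8% against 60.7% and 51.4% against 59.7%. For both genes, 16 of 49 other clones were lower than the clone and 33 higher. Levels in the 10 other large clones ran from 12.6 to 1536 CPM for Krt17 and from 141 to 742 CPM for Slpi. Of those 10, 5 were below the clone for Krt17, with a median of 220 CPM, and 2 for Slpi, with a median of 270 CPM. The clone's Krt17 was thus in the middle of the large clones.

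Stress keratins and alarmins as a list did not move together. Of 6 measured members of 10, 3 were higher and 3 lower in Diff_MK, Krt17 and Slpi were called, and the median was 0.01 on the log2 scale, beside -0.04 over all measured genes. Krt6a, the wound keratin, was at 3280 CPM against 3115 CPM (1.05). Members below the 20 CPM minimum, looked up after their values were seen, included Lcn2, an iron-scavenging defence protein, at 0.746 CPM in clone cells and 7.56 CPM in other cells, and S100a8, a calcium-binding alarmin, at 1.74 CPM against 10.1 CPM. In MK, S100a9, the partner of S100a8, was called lower at 9.84 CPM against 21.5 CPM, and Lcn2 at 25.0 CPM against 41.4 CPM, its 28 clone UMIs coming from 4 cells. S100a8 was level in MK, at 22.4 CPM against 22.9 CPM. S100a9 was measured in MK only.

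Transcripts of the cornified envelope were split. Lor, which encodes loricrin, the main envelope protein, was at 11.4 CPM in clone cells and 29.8 CPM in other cells of Diff_MK, 0.383 (0.308 to 0.473), and at 60.8 CPM against 73.5 CPM in MK. Its Diff_MK level was close to the median of the other clones, 11.01 CPM, and 25 of 49 lay below it. Sprr1a, a cross-linked precursor of the envelope, went the other way, with 108 CPM in clone cells and 70.3 CPM in other cells of Diff_MK, 1.54 (1.43 to 1.65). In MK, Sprr1a had 7 UMIs in the clone, 6.26 CPM, against 27.3 CPM, 0.229 (0.0921 to 0.473), beside a median of 6.33 CPM in the other MK clones. Of 14 measured members of the granular and cornified list of 28, 6 were higher and 8 lower in Diff_MK and only those genes were called. Sprr1b, its close relative, was at 1345 CPM against 1175 CPM, Sprr2d at 286 CPM against 249 CPM, and Ivl, which encodes involucrin, at 73.1 CPM against 76.1 CPM. Reads of the near-identical small proline-rich genes, and of the prolactin family below, may be split between copies.

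Sprr1a was a matter of few cells. The 5 clone cells with the most Sprr1a held 62.6% of its 869 UMIs, and the top 1% of other cells held 59.2%. The share of cells with a Sprr1a UMI after thinning was 11.1% in the clone and 11.5% in the other cells, and 18.5% and 16.8% unthinned. The higher sum therefore stood beside an equal share of positive cells. Of the envelope genes under 20 CPM, 2 were even more concentrated and were picked after their values were seen. Calm4, a calcium-binding protein of the differentiated epidermis, was at 12.1 CPM in clone cells and 1.26 CPM in other cells of Diff_MK, above all 49 other clones, of which the highest had 8.05 CPM. All 97 Calm4 UMIs came from 6 of the 498 clone cells, and 65 of them from 1 cell. Crct1, a cysteine-rich protein of the envelope gene cluster, was at 15.2 CPM against 5.50 CPM, with 122 UMIs in 9 clone cells. In MK both were at 0 UMIs in the clone.

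The 3 other genes called higher in Diff_MK beside Sprr1a and Prl8a9 were Ly6m, Mt3 and Cstdc5. Ly6m, a member of the Ly6 family of surface proteins, was at 21.0 CPM against 10.3 CPM, 2.04 (1.71 to 2.41). Prl8a9, of the placental prolactin family, was at 35.8 CPM against 20.2 CPM, 1.77 (1.56 to 2.02), and the 3 measured members of that list were all higher with a median of 0.33. Mt3, a metallothionein that binds zinc and copper, was at 21.8 CPM against 14.1 CPM, and Cstdc5, of the cystatin family of protease inhibitors, at 26.1 CPM against 17.0 CPM. Over 13 other settings the call was lost in 5 for Cstdc5 (lowest ratio 1.18), in 3 for Mt3 (1.05), in 2 for Prl8a9 (1.16) and in 2 for Ly6m (1.69), whose ratio stayed above 1.5 but whose level fell under 20 CPM. Between 6 and 10 of the 49 other clones were above the clone for each of these 5 genes. The 5 clone cells with the most UMIs held 56.8% of those of Ly6m, 60.6% of Mt3, 41.7% of Prl8a9 and 34.3% of Cstdc5. In MK, Ly6m, Mt3 and Cstdc5 had 0 UMIs in the clone. Defb1, an antimicrobial defensin, came near a call in Diff_MK at 178 CPM against 122 CPM, with a thinned share of cells of 46.4% against 37.6% and an unthinned one of 64.3% against 50.7%.

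Basal keratins were slightly higher in the clone in both libraries. Krt14 was at 14304 CPM in clone cells and 12125 CPM in other cells of Diff_MK (1.18) and at 7437 CPM against 6520 CPM in MK (1.14), and Krt5 at 3353 CPM against 2917 CPM (1.15) and 1333 CPM against 1178 CPM (1.13). These differences are under the fold called. Within Diff_MK clusters, Krt14 was higher in the clone in clusters 1, 5, 7 and 8. It was lower in clusters 3, 4, 6 and 9, and each of these intervals left out 1. For Krt14, 11 of 49 other clones in Diff_MK and 8 of 45 in MK were higher. Of 16 measured basal genes of 18, 12 were higher in Diff_MK with a median of 0.07 and 0 called, and in MK 6 of 15 were higher with a median of -0.03. The basal list was thus near the median of all genes, and its summed level was carried by the keratins.

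Spinous genes showed no like direction in both libraries. In Diff_MK, 5 of 7 measured members of 16 were higher, with a median of 0.12 and 0 called. Lgals7, a galectin of stratified epithelium, was at 1015 CPM in clone cells and 797 CPM in other cells (1.27), and Ly6d, a surface protein of the suprabasal layers, at 1307 CPM against 1188 CPM. In MK, 6 of 7 were lower with a median of -0.42, and Ly6d (173 CPM against 278 CPM, 0.620) and Mt4, a metallothionein of stratified epithelium (8.94 CPM against 27.7 CPM, 0.323), were called. Thinned shares of MK cells with an Ly6d UMI were 40.8% in the clone and 40.4% in other cells, and unthinned 54.7% and 53.1%, so the lower sum was not a lower share of positive cells. Krt15, a keratin of basal and stem-like cells, was at 590 CPM in clone cells and 640 CPM in other cells of Diff_MK and had 0 UMIs in the MK clone. After thinning, 0 of 71 MK clone cells held a Krt15 UMI, which allows a share of up to 4.23% by a floor of 3 cells and 5.06% by the exact interval, against 0.846% of other cells. Unthinned, the shares were 0% and 1.45%.

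Only 4 genes were called lower in both libraries (0.0771% of 5188 measured in both), and 0 higher (0%). Fn1, which encodes the matrix protein fibronectin, was at 21.8 CPM in clone cells and 32.9 CPM in other cells of Diff_MK and at 17.0 CPM against 26.3 CPM in MK, where its interval, 0.388 to 1.01, includes 1. Trp53inp2, an autophagy factor, was at 18.4 CPM against 29.4 CPM and at 25.9 CPM against 42.9 CPM. Socs7, of the suppressors of cytokine signalling, was at 14.9 CPM against 23.3 CPM and at 17.9 CPM against 29.2 CPM. These are low genes, with 19 to 29 UMIs each in the MK clone. Of the 20 genes called lower in Diff_MK, 19 were measured in MK and all 19 had a ratio under 1 there, while 54.3% of all genes measured in both libraries had the same direction in both.

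Other genes called lower in Diff_MK were of mixed kinds, and of those given here none was called in MK. Ipmk, an inositol phosphate kinase, was at 16.03 CPM in clone cells and 27.3 CPM in other cells (0.587), and Gjc1, a gap junction protein, at 11.7 CPM against 20.2 CPM (0.578). Pcyt1b, an enzyme of phosphatidylcholine synthesis, was at 18.3 CPM against 31.6 CPM (0.579), and Mapk13, the delta form of the p38 stress kinases, at 45.5 CPM against 72.5 CPM (0.628). Pou3f1, a POU transcription factor of keratinocytes, was at 34.1 CPM against 53.97 CPM (0.631), and Hes6, of the hairy and enhancer of split family, at 25.7 CPM against 40.9 CPM (0.629). Crtc3, a coactivator of CREB, was at 16.7 CPM against 25.7 CPM (0.647), and Coq10b, a coenzyme Q binding protein, at 51.6 CPM against 79.1 CPM (0.652). For each of these genes 31 to 36 of the 49 other clones were above the clone.

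The plot of both libraries' ratios shows the same picture. Of the genes called lower in Diff_MK, the 19 measured in MK all had a ratio under 1 there, and 4 of them were called lower. Of those called higher in Diff_MK, only Sprr1a was measured in MK, where it was called lower. Across the 5188 genes measured in both, Pearson's r of the log2 ratios was 0.10, and 0.30 over the 614 genes at 200 CPM or more in the other cells of both. These are correlations across genes, which are not independent replicates.

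**Figure D3:**
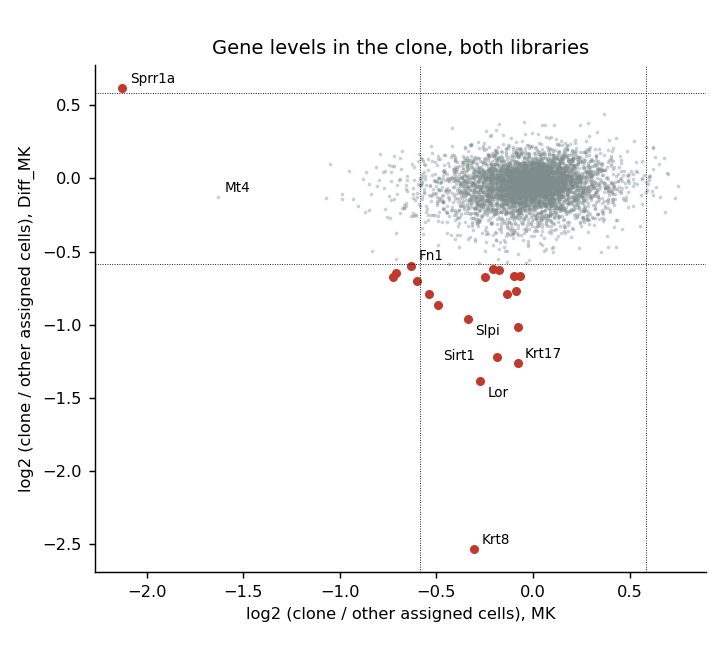
Log2 ratio of the clone to the other assigned cells in Diff_MK (vertical) against the same in MK (horizontal) for genes measured in both, with dotted lines at 1.5-fold and the genes called in Diff_MK in red. Krt8 stands lowest, at a ratio of 0.172 in Diff_MK and 0.811 in MK, and Sprr1a alone is high in Diff_MK and low in MK.

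Genes called in MK were looked up in Diff_MK, where 0.464% of all measured genes were called. Chac2, a glutathione-degrading enzyme, was at 25.0 CPM in clone cells and 12.8 CPM in other cells of MK, 1.96 (1.30 to 2.85), above all 45 other clones, and at 15.8 CPM against 14.8 CPM in Diff_MK. Rab4b, a small GTPase of recycling endosomes, was at 53.6 CPM against 31.8 CPM in MK and at 30.5 CPM against 31.5 CPM in Diff_MK. Of the MK calls, 22 of the 56 higher ones were measured in Diff_MK, 12 of them had a ratio above 1 there and 0 were called higher. Of the 105 lower ones 81 were measured, 59 had a ratio under 1, 4 were called lower and 1, Sprr1a, was called higher. Over all genes measured in both libraries, 54.3% had the same direction. The 2 directions were not equally common, since 3405 of all 5393 genes measured in Diff_MK had a ratio under 1 and 1988 a ratio above 1. Jun, an immediate early transcription factor, was at 20.6 CPM against 37.4 CPM in MK and at 149 CPM against 144 CPM in Diff_MK.

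Cell-cycle genes of the G2/M phase were nearly all a little lower in the Diff_MK clone. Of 44 measured members of 52, 43 had a ratio under 1, with a median of -0.17, beside -0.04 over all genes, and 0 were called. Cenpf, a centromere protein, was at 145 CPM against 181 CPM, with thinned shares of 34.5% against 40.9% and unthinned ones of 42.4% against 47.3%. Mki67, a marker of cycling cells, was at 99.3 CPM against 114 CPM. In MK the median of 48 members was -0.03, with 28 lower. With the other Diff_MK cells weighted to the clone's mix of clusters, the median was -0.02 with 29 of 43 lower, and against all other kept cells -0.06 with 30 of 43 lower. The shift was thus small, and its size depended on which cells it was set against. Genes of the G1/S phase had a median of -0.05 in Diff_MK and -0.03 in MK.

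Other gene groups in Diff_MK had few calls. All 7 measured inflammatory chemokines and cytokines of 20 were lower, with a median of -0.15 and 0 called, beside 3405 lower of all 5393 measured genes. The neutrophil attractant Cxcl5 was at 895 CPM in clone cells and 991 CPM in other cells, and Ppbp at 130 CPM against 162 CPM. In the list of IGF-binding proteins and growth state, 6 of 8 measured were lower with a median of -0.25. Igfbp7 was at 420 CPM against 491 CPM, and Hmga2, a chromatin protein of growing cells, at 135 CPM against 177 CPM. Ifi27, an interferon-induced gene, was called, at 15.9 CPM against 29.1 CPM, and H2-D1, an MHC class I chain, was not, at 178 CPM against 251 CPM. CDK inhibitors had a median of 0.00 in Diff_MK, and Cdkn1a was at 233 CPM in both groups. In MK the 5 measured CDK inhibitors were all higher (median 0.15) and the 5 Notch pathway genes all lower (median -0.12), with 0 called in either.

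The cells of the clone were spread over the expression clusters much like the other cells. Clustering of both libraries gave 13 clusters, numbered from 0, and clusters 0, 2 and 9 could be named from markers as G2/M-like, S-like and granular-like. Cluster 8 also had 6 of 8 detected granular markers at 1.5-fold or more above the rest. For G2/M markers this held for 8 of 10 in cluster 6 and 10 of 10 in cluster 10. The cycling clusters left out in a setting below are 0 and 2 only. In Diff_MK, cluster 1, led by Krt15, Clu and Lgals7, held 25.1% (21.4 to 29.2%) of clone cells against 19.8% (18.6 to 21.0%) of other cells. Cluster 3, led by Lor, Lcn2 and Tchh, held 2.61% (1.40 to 4.42%) against 8.68% (7.86 to 9.57%). In both cases the counting intervals were apart, but other clones ranged from 0 to 58.8% in cluster 1 and from 0 to 87.1% in cluster 3. Cluster 5 held 29.3% against 27.0%, cluster 7 16.1% against 17.7%, cluster 8 8.43% against 7.32%, and the granular-like cluster 2.61% against 1.88%. In MK the G2/M-like cluster held 29.3% of clone cells against 31.9% of other cells and the S-like cluster 28% against 26.9%, with all intervals overlapping.

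**Figure D4:**
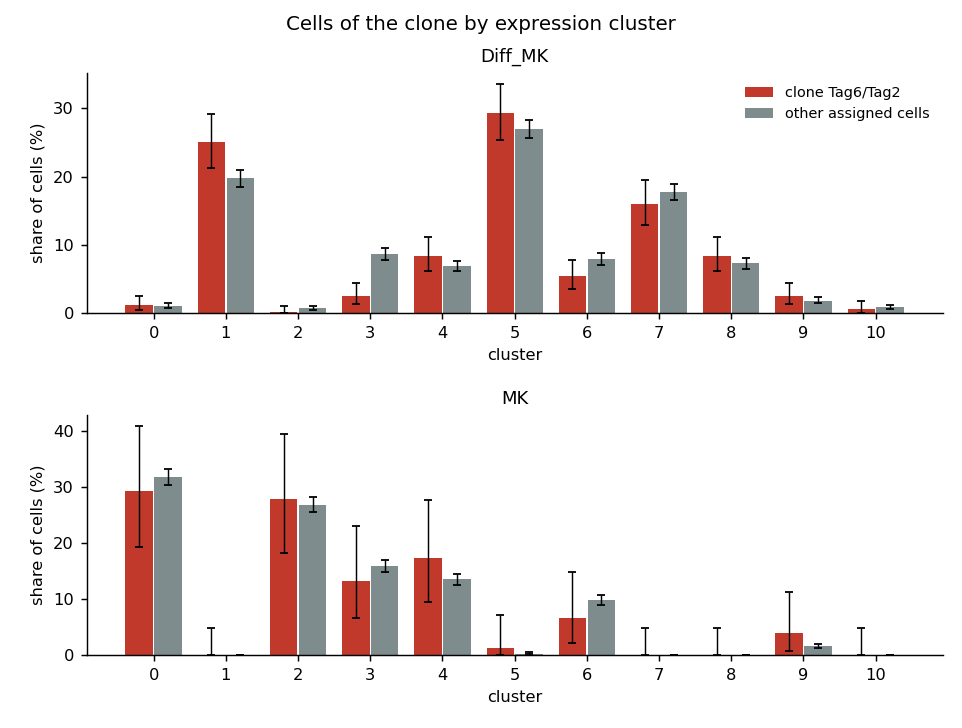
Share of the clone's cells (red) and of the other assigned cells (grey) in clusters 0 to 10, Diff_MK above and MK below, in %, with 95% exact binomial intervals over cells. In Diff_MK only clusters 1 (25.1% against 19.8%) and 3 (2.61% against 8.68%) have intervals that do not overlap.

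The cluster 3 share moves with part of the gene calls. Lor, Trp53inp2 and Sirt1 are among the 10 leading genes of cluster 3 and among the 20 genes called lower in Diff_MK. Sirt1, a deacetylase, was at 17.4 CPM in clone cells and 40.5 CPM in other cells. When the other cells were weighted to the clone's mix of clusters, a comparison added after seeing the data, Lor had a ratio of 0.824 and Sirt1 0.745, and these were no longer called. Within single clusters every Lor interval included 1. At that mix 6 lower calls were left, Krt8 (0.193), Krt17 (0.400), Ifi27 (0.622), Slpi (0.628), Krt7 (0.637) and Fn1 (0.660). The higher calls at that mix were Mt3 (2.52), Ly6m (1.89) and Mt4 (1.52). Without the weighting Mt4 was not called in Diff_MK, at 32.8 CPM in clone cells against 35.9 CPM, and in MK it was called lower.

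Krt8 was lower in the clone within 7 of the 8 Diff_MK clusters compared, with intervals below 1. It was at 1.43 CPM in clone cells and 27.8 CPM in other cells of cluster 1, at 6.05 CPM against 58.4 CPM in cluster 5, and at 11.9 CPM against 99.2 CPM in cluster 8. In the granular-like cluster 9 it was at 52.8 CPM against 49.5 CPM, from 13 clone cells. Krt17 differed most in cluster 5, at 37.7 CPM against 503 CPM, and in cluster 9, at 122 CPM against 1482 CPM. In cluster 4, where Krt17 was among the leading genes, it was at 883 CPM against 1118 CPM. Slpi was lower in clusters 1, 3, 4, 5, 7 and 9 but higher in cluster 8, at 208 CPM against 134 CPM. Sprr1a was higher in clusters 8 (822 CPM against 647 CPM) and 9 (1280 CPM against 767 CPM) and lower in clusters 4 (6.42 CPM against 17.3 CPM) and 5 (4.62 CPM against 8.31 CPM).

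**Figure D5:**
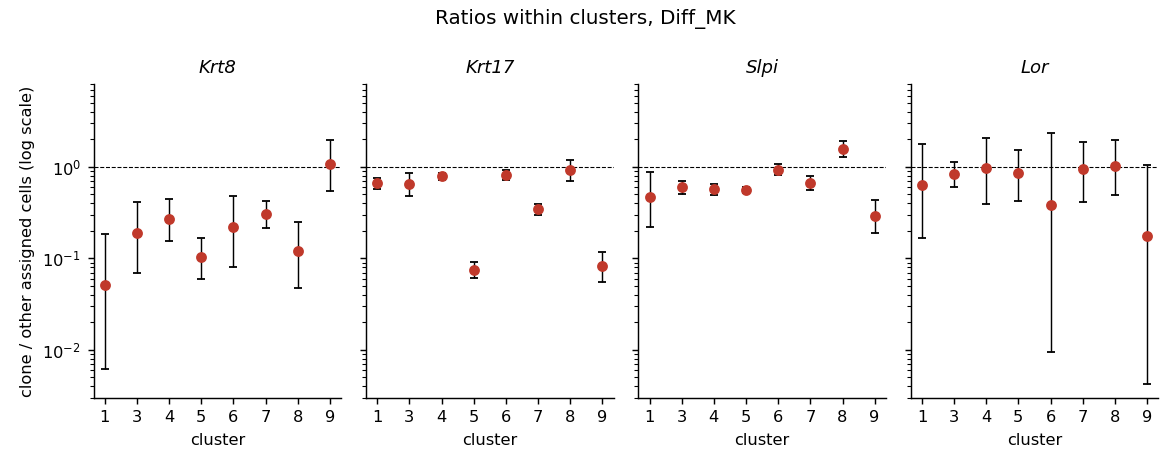
Ratio of the clone to the other assigned cells (log scale) within each Diff_MK cluster of at least 10 clone cells for 4 genes, with 95% exact binomial intervals over UMIs and the dashed line at 1. Krt8 lies below 1 in every cluster but 9, Krt17 is lowest in clusters 5 and 9 (0.0749 and 0.0823), and all Lor intervals reach 1.

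Set against MK, the Diff_MK cells of the clone differed in the same direction as the other cells did for the genes that differed most in the other cells. Of 5686 genes compared, 89 (1.57%) stood 2-fold or more above MK and 27 (0.475%) 2-fold or more below it in the other assigned Diff_MK cells. All 89 were higher in the clone too, 78 of them 2-fold when 0 counts in the MK clone were set to a floor of 3, and all 27 were lower, 26 of them 2-fold. The median log2 change over the 89 genes was 1.70 in the clone and 1.47 in other cells, and over the 27 genes -1.37 and -1.19. Those genes were chosen on the other cells, and the clone and the other cells come from the same libraries. In the clone itself, 120 genes (2.11%) were 2-fold higher and 92 (1.62%) 2-fold lower. Krt19 was 4.57-fold higher in Diff_MK in the clone and 4.57-fold in other cells, Krt14 1.92-fold and 1.86-fold, and Lgals7 36.6-fold and 21.5-fold. Krt15 was at least 220-fold higher in the clone with 3 counts over the MK clone as the floor, the lower limit of its exact binomial interval being 179, and 478-fold higher in other cells.

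For the genes that were called in Diff_MK, the ratio of the libraries restates the clone's ratios in each. The ratio of Diff_MK to MK for Krt8 was 0.205 (0.150 to 0.280) in the clone and 0.962 (0.926 to 0.999) in other cells. For Krt17 the ratio was 0.708 (0.629 to 0.800) in the clone and 1.61 (1.58 to 1.64) in other cells, on opposite sides of 1. For Slpi it was 0.429 in the clone and 0.662 in other cells, and for Sprr1a 17.3 (8.34 to 43.1) and 2.58 (2.44 to 2.72). The difference between these ratios was not tested, since each rests on 1 library per group.

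Clone cells were hardly more alike than cells drawn from different clones. The mean correlation of cells within the clone exceeded that of clone cells with other cells by 0.00523 in Diff_MK, and 34 of 46 other clones had a larger excess. In MK the excess was 0.00115, and 24 of 45 other clones had a larger one.

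Genes grouped by chromosome also differed little. In MK the clone's median log2 ratio for chromosome 9 was -0.033 over 299 measured genes, below 44 other clones and above 1. The other clones ran from -0.055 to 0.075. The chromosome 10 median in the Diff_MK clone was -0.08 over 257 measured genes, inside the range of the other clones, -0.23 to 0.22 with a median of 0.11, and 35 of 49 were above it. Clone cells were not uniform in this measure. The share of a cell's UMIs from chromosome 10 genes, relative to the mean of the assigned cells, had a standard deviation of 0.141 over the 498 clone cells, against 0.0675 from counting alone, and 4 of 24 other clones of 50 or more cells spread wider. Its median was 1.09 in cluster 3 and 1.14 in cluster 6 but 0.839 in cluster 1 and 0.882 in cluster 8, and other cells of those clusters had medians of 1.14 and 1.14, and 0.883 and 0.890. In cluster 5 the medians were 0.904 in 146 clone cells and 0.956 in other cells, and in cluster 9 they were 0.853 and 0.969. The clone's median was above that of the other cells in no Diff_MK cluster compared. Medians thus differed between clusters in both groups, and the part of the tag was not tested. In the MK clone the standard deviation was above that of all 15 other clones of 50 or more cells for chromosomes 8 (0.137, highest other 0.130), 13 (0.204, highest other 0.184), 16 (0.241, highest other 0.225) and 17 (0.139, highest other 0.121).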

How the data were processed

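The RNA data are deposited as UMI counts (whole numbers) of genes in cell barcodes, made by the authors with Cell Ranger 6.1.2 on mm10, per the file headers and the submitters' processing notes. Tag data are deposited as whole counts, too. Whether these are UMIs or reads, the tool that counted them and the gene annotation are not given in the sources used here. Single-cell libraries used 10x 3′ v3 chemistry, per the labels' protocols. The "unmapped" entry, 10.1% of Diff_MK and 18.2% of MK tag counts, was left out.

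Computed here were the cell filter, the clone assignment, CPM of summed UMIs, exact conditional binomial intervals of ratios and Clopper-Pearson intervals of shares (95%; scipy 1.17.1), with no p-value. Counting intervals and floors of 3 counts cover counting error only. Clusters came from Leiden clustering (scanpy 1.11.5, leidenalg 0.10.2; 2000 variable genes, 30 components, 15 neighbours, resolution 0.5, both libraries together without integration). Doublets were not removed. Gene positions come from GENCODE vM21, where 32158 of 32285 identifiers matched. The steps were tested on simulated data.

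The members and the gene lists were chosen with earlier results of these data known. Named genes are the 12 highest and 12 lowest of those with the same direction in both libraries, the 8 highest and 8 lowest of each library, 2 members of each list (most abundant, largest ratio) and 13 set keratinocyte and growth genes, ranked after adding 5 CPM. Predicted, mitochondrial and ribosomal protein genes were left out. Krt7, Krt18, Coq10b, Hes6, Pou3f1, Crtc3, Ipmk, Mapk13, Ivl, Lcn2, S100a8, Calm4 and Crct1 were chosen after their values were seen. Some called genes are not reported here.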

Additional observations from a re-analysis of the deposited data

Results flagged for a closer look

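Sprr1a was called in opposite directions in the libraries, at a ratio of clone to other assigned cells of 1.54 in Diff_MK and 0.229 in MK, where the clone had 7 Sprr1a UMIs. The difference between the libraries was not tested.

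For 5 named genes the ratio of Diff_MK to MK lay on opposite sides of 1 in the clone and in the other assigned cells, with neither counting interval reaching 1. The difference was not tested for any of them. Krt17 had a ratio of 0.708 in the clone and 1.61 in other cells. Chac2 had 0.631 and 1.16, Klhl24 0.626 and 1.23, and Tusc3 0.607 and 1.11, and these genes were named for being highest in the MK clone. Pop4, named for being among the lowest there, with 8 UMIs, had 2.47 and 0.829.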

How the results depend on the processing

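Each group is 1 library, so no result here has a replicate to leave out. No paired analysis was possible because the libraries carry no replicate numbers and no test was made. Of 13 other settings per named gene, 2 were chosen after seeing the data: leaving out clones 1 base away, and weighting the other cells to the clone's cluster mix. Krt8 kept its Diff_MK call in 13 of 13 (0.166 to 0.198), Krt17 in 13 (0.372 to 0.448), Slpi in 13 (0.447 to 0.628) and Ifi27 in 13 (0.437 to 0.622). Sprr1a kept its higher Diff_MK call in 7 (1.03 to 1.72) and its lower MK call in 12 (0.112 to 0.382). Of all ratios of named genes under other settings, 2992 moved little, 231 moved and 1 reversed, Fn1 in MK, at 1.15 outside the cycling clusters.

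Counts of calls depended on the setting. With a leading tag of 5 times the next, the clone was 11.9% of Diff_MK cells, with 2 higher and 32 lower calls there and 7 lower in both libraries. Higher calls in Diff_MK were 3 at 2000 genes and 10% mitochondrial counts, 8 with each cell scaled to the same total, 2 against all kept cells and 3 without the clones 1 base away, where 2 genes were lower in both. Lower calls in Diff_MK were 61 with clones weighted equally (7 in both) and 31 without the largest clone. Outside the cycling clusters MK had 312 higher and 412 lower calls, with 7 lower in both. At 2-fold, 1 gene was higher and 5 lower in Diff_MK, 0 and 6 in MK, and 0 lower in both. At 10 CPM these were 14 and 39, 189 and 339, and 7, and at 50 CPM 1 and 7, 4 and 7, and 0. From 3 counts with no CPM minimum there were 907 and 2590 in Diff_MK, 1409 and 4806 in MK, and 152 higher and 1492 lower in both. At the clone's cluster mix Diff_MK had 3 higher and 6 lower calls, with 1 lower in both. The cause of these differences was not tested, apart from fewer cells or genes where a setting leaves them out.

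With 75 MK clone cells, a gene at 20 CPM rests on few UMIs, so small differences were not detectable in MK.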
